A study of Homo sapiens with 24 samples.

Results

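HCC1395 is an established triple-negative breast cancer cell line. The comparison is between HCC1395 cells given both inhibitors, EZH2i+AKTi (5 uM tazemetostat and 5 uM ipatasertib, libraries A, B and C), and HCC1395 cells given AKTi alone (5 uM ipatasertib, libraries A, B and C). It asks what the EZH2 inhibitor adds once AKT is inhibited, since the AKT inhibitor is common to both groups. These are 6 of the 24 libraries of the study, set by cell line and treatment in the labels; the comparison was picked with earlier results of these data known. The other HCC1395 groups, EZH2i alone (5 uM tazemetostat) and DMSO (the vehicle), each with 3 libraries, served for the comparison without AKTi. The labels do not give a clear treatment time for these samples, nor do they say that A, B and C are separate cultures, so p-values measure the spread between these libraries, which may be technical. Polyadenylated RNA was sequenced, and the deposited value is a read count per gene. Of 58735 entries 18074 passed the low-count filter and all of these were tested. Levels are in CPM, counts relative to the library total after trimmed-mean (TMM) scaling, and changes are log2 values of EZH2i+AKTi over AKTi ± SE from edgeR's quasi-likelihood test. "Called", "rose" and "fell" mean a Benjamini-Hochberg adjusted p under 0.05 over the 18074 genes.

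EZH2 is the catalytic subunit of Polycomb repressive complex PRC2, which places methyl groups on a lysine of histone H3 and so helps to keep developmental genes silent. Tazemetostat blocks that catalytic activity. AKT is the kinase through which PI3K signalling promotes survival and growth and holds FOXO transcription factors outside the nucleus; ipatasertib blocks the ATP site of the AKT kinases.

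Total counts were 51815656, 51155317 and 33469927 in the EZH2i+AKTi libraries and 40829653, 39129189 and 37830698 in the AKTi libraries. The groups did not overlap on the mitochondrial share of counts, 6.20% ± 0.09 under EZH2i+AKTi against 5.55% ± 0.19 under AKTi (SD, n = 3 each). The ribosomal protein share was 7.43%, 8.75% and 6.83% in the EZH2i+AKTi libraries, where B stood apart, and 7.10%, 7.02% and 6.63% in the AKTi libraries. Scaling without mitochondrial and ribosomal protein genes called 3291 genes higher and 2910 lower, and leaving out EZH2i+AKTi B called 3069 and 2586, against 3067 and 3358 with all genes and libraries. Between EZH2i+AKTi libraries, counts differed with a chi-squared per degree of freedom of 10.1 to 31.7, against 3.61 to 6.06 within the other groups. The SD of log CPM differences was 0.36 to 0.44 in that group and in the others. Fitting the 6 compared libraries alone called 2724 genes higher and 2169 lower. Of 9 epithelial markers all were tested, KRT14, KRT8 and KRT18 with the most counts, while CDH1 and KRT19 stayed under 1 CPM in these 6 libraries. The summed epithelial level was 692 to 784 CPM under EZH2i+AKTi and 473 to 499 CPM under AKTi. The sum of 9 fibroblast markers, nearly all of it COL1A2, was 815 to 932 CPM under EZH2i+AKTi and 902 to 918 CPM under AKTi, with COL3A1, LUM and FAP near 0. Leukocyte markers summed to 1.88 to 2.18 CPM under EZH2i+AKTi and 1.59 to 1.93 CPM under AKTi, with CD3E at 0 in each of the 12 HCC1395 libraries, and endothelial markers to 3.38 to 4.50 CPM under EZH2i+AKTi and 1.81 to 3.52 CPM under AKTi. These sums are on library totals without TMM. In bulk RNA, fewer cells of a type and less RNA per cell cannot be told apart.

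Adding the EZH2 inhibitor changed 6425 genes (35.5% of those tested), raising 3067 (17%) and lowering 3358 (18.6%). At 2-fold or more, 1173 genes rose (6.49%) and 66 fell (0.365%). The median change over all tested genes was -0.01. All 3 EZH2i+AKTi libraries lay above all 3 AKTi libraries for 3694 genes (20.4%) and below them for 4109 (22.7%). Of the 1173, 17 had no count in any AKTi library, and each of these was at least 2-fold above the limit that 3 counts over the AKTi group set. Large rises were frequent among genes barely detected in DMSO, a group outside the comparison. Of 3284 genes under 0.5 CPM there, 751 rose, 708 of them (21.6%) by 2-fold or more, and 39 fell. Of 4196 genes over 50 CPM in DMSO, 381 rose, 2 of them by 2-fold or more, and 1645 fell (39.2%). A gene low in DMSO could pass the count filter through a treated group in which it was high, so the low class is not a neutral sample. Protein-coding genes gave 2714 rises and 3198 falls of 13977, and long intergenic RNA genes 127 rises and 38 falls of 1073.

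**Figure D1:**
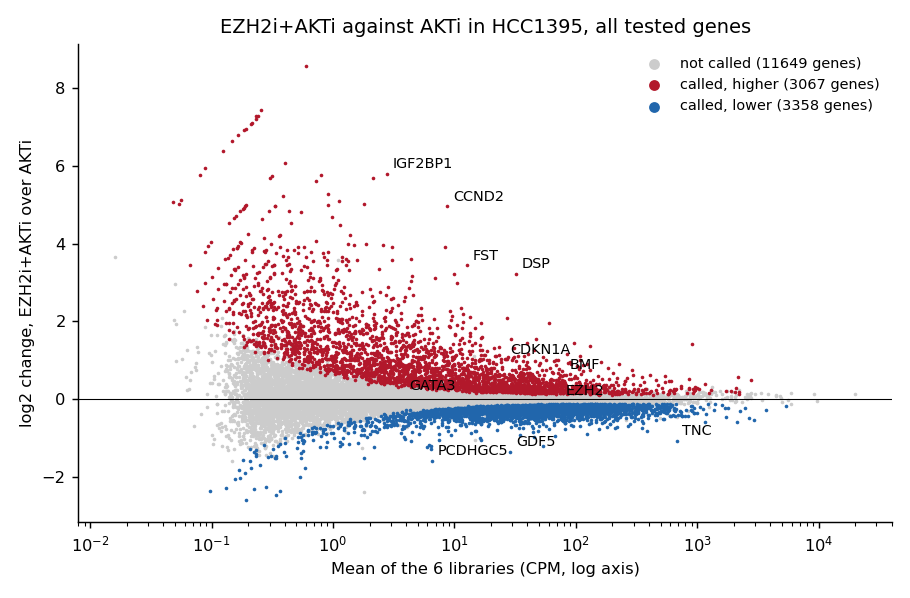
Each point is one of 18074 tested genes in HCC1395, with the mean level of the 6 EZH2i+AKTi and AKTi libraries (CPM, log axis) against the log2 change, EZH2i+AKTi over AKTi. Called rises (red, 3067) reach far larger changes than called falls (blue, 3358), and mostly at low mean levels.

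The largest rises among protein-coding genes averaging 2 CPM or more began with genes under 1 CPM in each AKTi library. IGF2BP1, an oncofetal RNA-binding protein gene (hg38 chr17:48997412-49055650, plus strand), had 5.62, 5.09 and 5.76 CPM under EZH2i+AKTi and 0.126, 0.130 and 0.0267 CPM under AKTi (log2 change 5.80 ± 0.39, adjusted p = 3.24e-13). The ubiquitin-ligase subunit gene FBXL7 had 4.58, 4.03 and 3.95 CPM with EZH2i+AKTi, against 0.126, 0.0261 and 0.0801 CPM with AKTi alone (log2 change 5.70 ± 0.44, adjusted p = 4.14e-12). CCND2, encoding cyclin D2 (chr12:4273772-4305350, plus strand), had 17.8, 17.5 and 15.6 CPM in the EZH2i+AKTi libraries, against 0.530, 0.521 and 0.587 CPM in the AKTi libraries (log2 change 4.96 ± 0.18, adjusted p = 1.17e-15). In these 3 genes each EZH2i+AKTi library lay far above the highest AKTi library. Lack of overlap between the groups was a condition of this ranking and of that of the falls, so it adds no support.

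Other strong rises were those of a stem-cell transcription factor, extracellular matrix, adhesion and signalling genes. SOX2, a transcription factor of pluripotent and neural stem cells, had 5.36, 5.54 and 3.77 CPM under EZH2i+AKTi and 0.328, 0.365 and 0.240 CPM under AKTi (log2 change 3.97 ± 0.41, adjusted p = 2.41e-07); SOX2-OT overlaps it on the same strand and may share its reads. COL4A5, a basement membrane collagen chain that averaged under 2 CPM, had 3.56, 3.11 and 3.83 CPM with EZH2i+AKTi, against 0.126, 0.104 and 0.0801 CPM with AKTi alone (log2 change 5.03 ± 0.42, adjusted p = 4.83e-11). FST, the secreted activin antagonist follistatin, had 23.4, 24.8 and 21.9 CPM in the EZH2i+AKTi libraries, against 2.24, 2.4 and 1.81 CPM in the AKTi libraries (log2 change 3.44 ± 0.12, adjusted p = 3.56e-14). For all of them the groups were far apart. The lowest EZH2i+AKTi library stood above the highest AKTi library, which the ranking required of SOX2 and FST but not of COL4A5. DSP, the desmosome linker desmoplakin, had 57.1, 46.5 and 71.5 CPM under EZH2i+AKTi and 5.57, 6.15 and 6.99 CPM under AKTi (log2 change 3.22 ± 0.18, adjusted p = 1.11e-07). EPHB6, an ephrin receptor without kinase activity, had 17.6, 19.6 and 16.6 CPM with EZH2i+AKTi, against 2.37, 1.95 and 1.44 CPM with AKTi alone (log2 change 3.22 ± 0.15, adjusted p = 1.65e-12). DSP varied more between EZH2i+AKTi libraries than the others did, C being highest. Also among the 16 largest rises of genes averaging 2 CPM or more were the junctional adhesion gene JAM3 (3.92 ± 0.16, overlapping NCAPD3), the nuclear receptor gene RORB (3.61 ± 0.18), the semaphorin gene SEMA5B (3.59 ± 0.25), the glypican gene GPC3 (3.16 ± 0.17), the chromatin organiser gene SATB1 (3.05 ± 0.17) and ISLR2, a neural immunoglobulin-superfamily gene (2.99 ± 0.12).

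The falls were smaller. GDF5, a BMP-family ligand of joint development (chr20:35433347-35454746, minus strand), had 16.9, 16.3 and 15.4 CPM in the EZH2i+AKTi libraries, against 44.7, 39.4 and 40.8 CPM in the AKTi libraries (log2 change -1.36 ± 0.06, adjusted p = 3.26e-12). TNC, the matrix glycoprotein tenascin C, had 428, 391 and 499 CPM under EZH2i+AKTi and 904, 905 and 959.5 CPM under AKTi (log2 change -1.07 ± 0.08, adjusted p = 3.31e-08). SCG5, a secretory granule chaperone gene, had 29.9, 37.5 and 29.5 CPM with EZH2i+AKTi, against 73.5, 78.4 and 71.5 CPM with AKTi alone (log2 change -1.20 ± 0.07, adjusted p = 1.6e-10). In each of the 3 all EZH2i+AKTi libraries were below all AKTi libraries, as the ranking required, and the RNA was still readily detected. The granin gene SCG2 had 11.5, 10.3 and 10.5 CPM in the EZH2i+AKTi libraries, against 22.7, 24.2 and 20.8 CPM in the AKTi libraries (log2 change -1.06 ± 0.08, adjusted p = 5.76e-09). PTPN22, a tyrosine phosphatase known from lymphocytes, had 3.2, 3.91 and 3.63 CPM under EZH2i+AKTi and 8.75, 8.57 and 7.82 CPM under AKTi (log2 change -1.23 ± 0.11, adjusted p = 4.88e-08). PCDHGC5 fell by 1.59 ± 0.17, but it overlaps other gamma protocadherin genes on its strand, so its reads may be shared. Also among the 12 largest falls were those of the stromelysin gene MMP3 (-1.22 ± 0.19), the kinase gene ALPK2 (-1.19 ± 0.11), the transglutaminase gene TGM2 (-1.06 ± 0.09) and the matrix gene SPARC (-1.04 ± 0.14).

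The start regions of some of these genes are given below, to show what lies at the start of genes that moved strongly in either direction; they are RefSeq sequences of build GRCh38.p14, from 250 bases before to 50 after the start, 5′ to 3′ on the gene's strand, with each CG pair in capitals. COL4A5 (chrX:108439588-108439887, plus strand) holds 8 CG pairs, PCDH7, a protocadherin gene (chr4:30720119-30720418, plus strand) 16, and SOX2 (chr3:181711675-181711974, plus strand) 20. These 3 genes rose. GDF5 (chr20:35454700-35454999, minus strand) holds 14 and PTPN22 (chr1:113871663-113871962, minus strand) 4; both fell. Over the tested genes that matched one entry the median was 27 pairs (quartiles 19 and 35), and 72.8% held at least 20, so all 5 regions shown lie below that median. Over all 22114 RefSeq start regions of this length the median was 12 pairs (quartiles 3 and 27), and 39.8% held at least 20. Only 46.0% of the tested genes matched one entry. The matched share differed between rising (48.7%) and falling (58.7%) protein-coding genes, and no CG comparison between them is reported.
COL4A5: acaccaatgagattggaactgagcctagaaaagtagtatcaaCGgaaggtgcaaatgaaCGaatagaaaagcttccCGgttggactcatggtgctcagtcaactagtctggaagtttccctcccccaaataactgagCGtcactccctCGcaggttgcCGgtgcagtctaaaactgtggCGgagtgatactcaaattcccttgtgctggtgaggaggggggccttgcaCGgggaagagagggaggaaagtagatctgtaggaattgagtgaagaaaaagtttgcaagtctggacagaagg
PCDH7: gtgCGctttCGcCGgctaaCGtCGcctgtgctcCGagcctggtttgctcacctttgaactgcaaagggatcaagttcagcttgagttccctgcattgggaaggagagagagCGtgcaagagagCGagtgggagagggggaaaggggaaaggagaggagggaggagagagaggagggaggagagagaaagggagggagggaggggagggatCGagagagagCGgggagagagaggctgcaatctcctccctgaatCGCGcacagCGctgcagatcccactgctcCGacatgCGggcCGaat
SOX2: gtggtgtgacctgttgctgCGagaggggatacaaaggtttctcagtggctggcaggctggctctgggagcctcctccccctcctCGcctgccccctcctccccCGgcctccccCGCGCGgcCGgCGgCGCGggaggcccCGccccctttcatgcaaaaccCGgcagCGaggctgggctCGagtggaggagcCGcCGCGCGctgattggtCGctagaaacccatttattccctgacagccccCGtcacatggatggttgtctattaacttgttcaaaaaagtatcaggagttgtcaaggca
GDF5: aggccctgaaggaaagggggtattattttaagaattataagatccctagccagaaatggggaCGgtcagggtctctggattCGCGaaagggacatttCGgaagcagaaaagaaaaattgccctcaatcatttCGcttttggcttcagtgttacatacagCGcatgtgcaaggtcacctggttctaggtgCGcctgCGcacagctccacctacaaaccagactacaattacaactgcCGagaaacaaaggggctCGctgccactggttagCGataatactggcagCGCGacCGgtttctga
PTPN22: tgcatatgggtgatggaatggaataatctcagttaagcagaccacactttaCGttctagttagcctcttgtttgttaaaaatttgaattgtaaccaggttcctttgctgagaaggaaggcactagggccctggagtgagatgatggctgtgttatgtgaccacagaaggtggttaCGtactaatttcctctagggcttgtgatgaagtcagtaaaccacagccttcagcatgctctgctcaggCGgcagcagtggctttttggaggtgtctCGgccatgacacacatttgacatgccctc

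**Figure D2:**
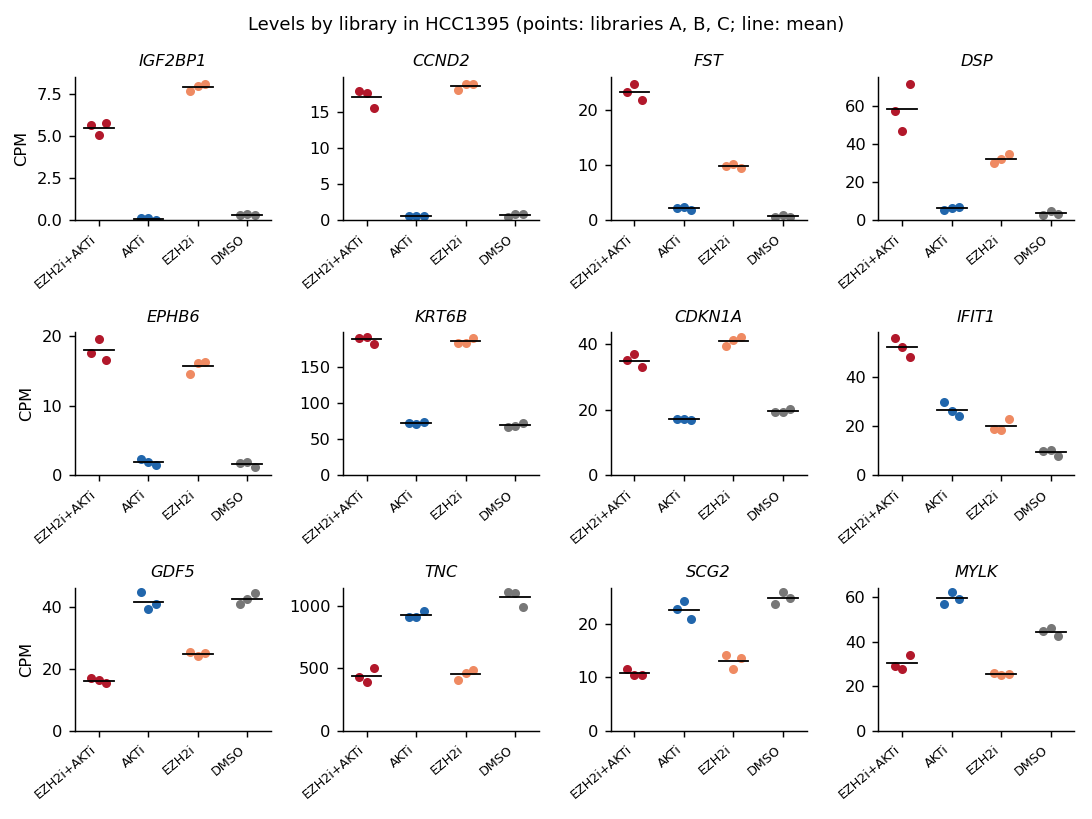
Level (CPM, linear axis from 0) of 12 genes in each HCC1395 library, in the order EZH2i+AKTi, AKTi, EZH2i and DMSO; points are libraries A, B and C and the line is their mean. In the upper and middle rows every EZH2i+AKTi library lies above every AKTi library, and in the lower row (GDF5, TNC, SCG2, MYLK) every one lies below.

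The RNA of the EZH2 gene itself did not pass the test. It had 74.6, 72.1 and 71.2 CPM with EZH2i+AKTi, against 72.1, 75.3 and 77.5 CPM with AKTi alone (log2 change -0.05 ± 0.05, adjusted p = 0.506), with the groups overlapping. The paralogue EZH1 (-0.10 ± 0.08, adjusted p = 0.36) and the core subunit gene EED (0.06 ± 0.07, adjusted p = 0.52) did not pass either. SUZ12, the core scaffold subunit, had 34.4, 31.1 and 38.2 CPM in the EZH2i+AKTi libraries, against 41.6, 44.8 and 45.3 CPM in the AKTi libraries (log2 change -0.35 ± 0.07, adjusted p = 0.000287), a fall without overlap. MTF2, an accessory subunit that recruits PRC2 to CG islands, fell by 0.28 ± 0.06 (adjusted p = 0.00105). Of 14 PRC2 genes 2 rose (EPOP and PHF19) and 5 fell (SUZ12, MTF2, RBBP7, JARID2 and RBBP4), 14.3% and 35.7% against 17% and 18.6% of all genes. Falls were called for 26.2% of tested genes at 10 to 50 CPM in DMSO, where MTF2 lay. Over 50 CPM, where SUZ12, RBBP7 and RBBP4 lay, the share was 39.2%. Without EZH2i+AKTi B, or without any one AKTi library, 1 rather than 2 rose.

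Most developmental transcription factor genes, a class that PRC2 typically represses, were higher. Of 69 tested members (84 listed) 48 rose and 6 fell, with a median change of 0.50. These shares, 69.6% and 8.70%, stood against 17% and 18.6% of all tested genes. FOXC1, a forkhead factor of basal-like breast cancer, had 120, 111 and 120.3 CPM under EZH2i+AKTi and 64.4, 62 and 55.5 CPM under AKTi (log2 change 0.95 ± 0.06, adjusted p = 1.42e-10). The homeobox gene MSX1 had 6.02, 5.46 and 5.76 CPM with EZH2i+AKTi, against 1.03, 0.808 and 1.39 CPM with AKTi alone (log2 change 2.42 ± 0.17, adjusted p = 5.03e-10), and the LIM-homeobox gene LMX1B 12.3, 9.91 and 10.2 CPM in the EZH2i+AKTi libraries, against 4.29, 4.8 and 4.08 CPM in the AKTi libraries (log2 change 1.30 ± 0.10, adjusted p = 4.37e-09). For all 3 the groups did not overlap. PRRX1, a mesenchymal homeobox factor, fell, with 23.6, 22.8 and 27.8 CPM under EZH2i+AKTi and 38.6, 38.9 and 40.3 CPM under AKTi (log2 change -0.67 ± 0.07, adjusted p = 1.98e-07). HOX genes, which set body-axis position, gave 14 rises and no fall of 27 tested (39 listed; 51.9%, median 0.32). Among all tested genes under 0.5 CPM in DMSO falls were also rare (1.19%), and 22.9% rose, with a median of 0.33. HOXD9 had 3.48, 3.75 and 3.25 CPM with EZH2i+AKTi, against 0.202, 0.261 and 0.187 CPM with AKTi alone (log2 change 4.0 ± 0.35, adjusted p = 3.03e-09). Its neighbour HOXD8 rose by 3.54 ± 0.32, HOXB7 by 1.16 ± 0.10 and HOXC12 by 1.08 ± 0.09. SOX genes gave 3 rises (SOX2, SOX11 and SOX8) and no fall of 12, 25% of that list. SOX11 had 1.69, 1.95 and 1.46 CPM in the EZH2i+AKTi libraries, against 0.177, 0.104 and 0.507 CPM in the AKTi libraries (log2 change 2.70 ± 0.36, adjusted p = 2.13e-06). Of 8 oncofetal genes IGF2BP1, IGF2BP2 and H19 rose and IGF2BP3 fell (37.5% and 12.5%). H19 lay near 0, with 14, 2 and 5 counts under EZH2i+AKTi and 2, 1 and 1 under AKTi. Its groups overlapped, and its adjusted p in edgeR's quasi-likelihood test was 0.0489. IGF2BP2 had 27.6, 25.6 and 27.9 CPM under EZH2i+AKTi and 17.3, 17.4 and 18.4 CPM under AKTi (log2 change 0.61 ± 0.07, adjusted p = 5.7e-07) and IGF2BP3 20.5, 17.8 and 22.2 CPM with EZH2i+AKTi, against 30.5, 26.6 and 30.2 CPM with AKTi alone (log2 change -0.53 ± 0.08, adjusted p = 3.4e-05), so the 3 paralogues did not move in one direction.

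Many neuronal and axon guidance genes were also higher, where 17% of all tested genes rose and 18.6% fell. Of 36 neuronal and synaptic genes 23 rose and 2 fell (63.9% and 5.56%, median 0.85); the 2 falls, GRIN2A and SCN2A, were not called without EZH2i+AKTi B or without AKTi C, and 1 of them was lost without EZH2i+AKTi A. CNTNAP2, a neurexin-family adhesion gene, had 14.3, 16.2 and 15.7 CPM in the EZH2i+AKTi libraries, against 3.38, 2.89 and 3.23 CPM in the AKTi libraries (log2 change 2.28 ± 0.09, adjusted p = 2.38e-13). The granule protein gene CHGA had 14.5, 16.4 and 14.6 CPM under EZH2i+AKTi and 3.33, 3.96 and 3.76 CPM under AKTi (log2 change 2.04 ± 0.10, adjusted p = 1.97e-12). The glutamate receptor gene GRIK2 rose by 1.98 ± 0.12. CHGA rose while the granule protein genes SCG2 and SCG5 fell. Of 57 guidance ligands and receptors 28 rose and 9 fell (49.1% and 15.8%). The ligand gene EFNA5 had 10.6, 9.93 and 9.42 CPM with EZH2i+AKTi, against 3.08, 2.89 and 3.34 CPM with AKTi alone (log2 change 1.69 ± 0.10, adjusted p = 5.54e-11) and the receptor gene EPHB3 189, 181 and 187 CPM in the EZH2i+AKTi libraries, against 125, 119.6 and 122 CPM in the AKTi libraries (log2 change 0.60 ± 0.04, adjusted p = 1.18e-09). Of 6 protocadherins outside the gene clusters PCDH7, PCDH19 and PCDH1 rose and PCDH10 fell (50% and 16.7%). PCDH7 had 2.84, 2.21 and 3.31 CPM under EZH2i+AKTi and 0.328, 0.0782 and 0.107 CPM under AKTi (log2 change 3.97 ± 0.47, adjusted p = 1.75e-07), and PCDH10 87.3, 86.1 and 96 CPM with EZH2i+AKTi, against 132, 121 and 129 CPM with AKTi alone (log2 change -0.50 ± 0.05, adjusted p = 2.37e-07). They moved in opposite directions without overlap.

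Secreted signals of the BMP, activin and WNT families held many rises. In the BMP and activin list 17 of 32 rose and 7 fell (53.1% and 21.9%, median 0.41). Of all tested genes 17% rose and 18.6% fell, so the share of falls was close to that. Among the ligands, INHBB, an activin subunit, had 15.8, 15.1 and 15.9 CPM in the EZH2i+AKTi libraries, against 2.77, 3.78 and 4.11 CPM in the AKTi libraries (log2 change 2.14 ± 0.12, adjusted p = 2.32e-11) and BMP7 5.95, 5.72 and 4.42 CPM under EZH2i+AKTi and 0.832, 0.860 and 0.961 CPM under AKTi (log2 change 2.61 ± 0.18, adjusted p = 1.82e-10). GDF5 and 6 others fell, and the activin antagonist FST was the largest rise of the list. Of 36 WNT ligands, receptors and antagonists 21 rose and 5 fell (58.3% and 13.9%, median 0.51). WNT7B had 22.8, 20.8 and 21.5 CPM with EZH2i+AKTi, against 4.87, 4.59 and 5.58 CPM with AKTi alone (log2 change 2.12 ± 0.08, adjusted p = 1.33e-13), and WNT6 14.7, 15.9 and 12.2 CPM in the EZH2i+AKTi libraries, against 3.91, 3.78 and 4.24 CPM in the AKTi libraries (log2 change 1.85 ± 0.12, adjusted p = 1.72e-10). The antagonist SFRP1 rose as well, with 56.2, 52.9 and 57.9 CPM under EZH2i+AKTi and 25.5, 23.8 and 25.3 CPM under AKTi (log2 change 1.16 ± 0.06, adjusted p = 5.59e-12), so ligands and an antagonist were both higher.

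Most interferon-stimulated genes were higher. Of 44 tested 33 rose and 1, LGALS3BP, fell (75% and 2.27%, median 0.62). IFIT1, an antiviral RNA-binding protein, had 55.8, 52.1 and 48.4 CPM with EZH2i+AKTi, against 29.8, 26.1 and 24.3 CPM with AKTi alone (log2 change 0.96 ± 0.10, adjusted p = 6.74e-07). HERC5, the ligase that attaches ISG15, had 47.4, 41.6 and 48.2 CPM in the EZH2i+AKTi libraries, against 22.3, 20.2 and 20.5 CPM in the AKTi libraries (log2 change 1.12 ± 0.07, adjusted p = 4.88e-10), and the ubiquitin-like modifier ISG15 itself 93.1, 110.1 and 87.1 CPM under EZH2i+AKTi and 59.5, 58.4 and 57 CPM under AKTi (log2 change 0.73 ± 0.07, adjusted p = 8.3e-08). IFI6, an interferon-induced membrane protein gene, rose by 0.79 ± 0.07 and the nucleotide kinase gene CMPK2, which overlaps RSAD2, by 1.65 ± 0.14. Each rise in these genes was without overlap between groups. MHC class II genes present peptides taken up from outside the cell. Of 8 tested (12 listed) 7 rose and none fell (87.5%), against 17% and 18.6% of all tested genes. HLA-DPB1 among them had no count under AKTi, so it passed the filter through other groups and could only rise here. CD74, the class II invariant chain, had 7.82, 8.4 and 7.25 CPM with EZH2i+AKTi, against 2.45, 2.11 and 1.95 CPM with AKTi alone (log2 change 1.85 ± 0.12, adjusted p = 3.45e-10) and HLA-DRA 4.22, 4.97 and 4.59 CPM in the EZH2i+AKTi libraries, against 1.39, 0.860 and 1.47 CPM in the AKTi libraries (log2 change 1.89 ± 0.18, adjusted p = 3.66e-08). Of 16 class I presentation genes 4 rose (HLA-F, HLA-B, HLA-C and HLA-E) and 3 fell (ERAP1, TAPBP and TAPBPL), 25% and 18.8%. That share of falls was close to the 18.6% of all tested genes. HLA-B had 687, 742 and 616 CPM under EZH2i+AKTi and 505, 498 and 477 CPM under AKTi (log2 change 0.47 ± 0.05, adjusted p = 1.34e-06), and the peptide-loading gene TAPBP 369.7, 362 and 342 CPM with EZH2i+AKTi, against 446, 407 and 413 CPM with AKTi alone (log2 change -0.24 ± 0.05, adjusted p = 0.000595). Reads of HLA genes may be split among near-identical members. NF-kB targets and chemokines gave 4 rises (CCL2, LTB, NFKB2 and CSF1) and 3 falls (IL32, NFKB1 and SOD2) of 25, 16% and 12%, with 2 rises without EZH2i+AKTi A or AKTi C and 7 without EZH2i+AKTi C. The lymphotoxin gene LTB had 3.03, 3.55 and 3.69 CPM in the EZH2i+AKTi libraries, against 1.26, 0.912 and 1.31 CPM in the AKTi libraries (log2 change 1.55 ± 0.19, adjusted p = 2.5e-06), the NF-kB subunit gene NFKB1 102, 94.8 and 113 CPM under EZH2i+AKTi and 128, 130.1 and 141 CPM under AKTi (log2 change -0.37 ± 0.06, adjusted p = 9.61e-05).

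Most called junction and luminal genes were higher, while basal markers split, where 17% of all tested genes rose and 18.6% fell. Of 26 junction genes 16 rose and 2, CLDN12 among them, fell (61.5% and 7.69%, median 0.53); without EZH2i+AKTi A or AKTi C 1 of the 2 falls remained. Next to DSP, the desmosomal cadherin gene DSC3 had 129, 128 and 151 CPM with EZH2i+AKTi, against 74.1, 78.3 and 76 CPM with AKTi alone (log2 change 0.83 ± 0.06, adjusted p = 2.07e-09) and the plakophilin gene PKP2 25.2, 21.5 and 26.4 CPM in the EZH2i+AKTi libraries, against 11.9, 11.4 and 9.63 CPM in the AKTi libraries (log2 change 1.15 ± 0.10, adjusted p = 6.77e-08), and the plakin gene PPL rose by 0.77 ± 0.09. Luminal mammary markers gave 11 rises and 1 fall of 20 (55.0% and 5.00%, median 0.64); the fall, XBP1, was not called without EZH2i+AKTi A or C or any one AKTi library. CD24, a luminal surface marker, had 30.04, 30.8 and 28.7 CPM under EZH2i+AKTi and 14.4, 13.3 and 13.6 CPM under AKTi (log2 change 1.12 ± 0.07, adjusted p = 1.52e-10). KRT18 had 76.2, 86.8 and 71.1 CPM with EZH2i+AKTi, against 48.5, 48.4 and 48.3 CPM with AKTi alone (log2 change 0.69 ± 0.07, adjusted p = 1.11e-07), and its partner keratin KRT8 125, 131 and 111 CPM in the EZH2i+AKTi libraries, against 101, 92.2 and 88.4 CPM in the AKTi libraries (log2 change 0.38 ± 0.07, adjusted p = 0.000422); both lie on opposite strands of overlapping loci and may share reads if strand was not used. ELF3, an epithelial ETS factor, rose by 1.88 ± 0.21. GATA3, the main luminal transcription factor, had 4.2, 3.23 and 4.36 CPM under EZH2i+AKTi and 3.86, 2.95 and 4.22 CPM under AKTi (log2 change 0.09 ± 0.16, adjusted p = 0.702); the groups overlapped. Basal and myoepithelial markers split, with 11 rises and 8 falls of 29 (37.9% and 27.6%). The keratin genes KRT6B and KRT14 rose: KRT6B had 189.9, 191 and 182 CPM with EZH2i+AKTi, against 72.6, 71.1 and 74.1 CPM with AKTi alone (log2 change 1.37 ± 0.05, adjusted p = 3.84e-14) and KRT14 496, 529.9 and 457 CPM in the EZH2i+AKTi libraries, against 329, 323 and 309 CPM in the AKTi libraries (log2 change 0.63 ± 0.05, adjusted p = 1.32e-08). The hemidesmosome integrin gene ITGB4 rose by 0.75 ± 0.05. MYLK, the kinase that drives contraction of myoepithelial and smooth muscle cells, fell, with 29.1, 27.9 and 33.8 CPM under EZH2i+AKTi and 57.2, 62.5 and 59.2 CPM under AKTi (log2 change -0.98 ± 0.07, adjusted p = 5.75e-10). TP63, the basal master regulator, had 10.3, 8.67 and 10.4 CPM with EZH2i+AKTi, against 18.5, 17.9 and 16.9 CPM with AKTi alone (log2 change -0.86 ± 0.10, adjusted p = 9.67e-07). The contractile actin gene ACTA2, in the same list, rose by 0.34 ± 0.09 (adjusted p = 0.00663). Of 10 epithelial regulators 6 rose and 1, TP63, fell (60% and 10%). The splicing factor gene ESRP1 had 1.5, 1.79 and 1.67 CPM in the EZH2i+AKTi libraries, against 0.202, 0.0782 and 0.160 CPM in the AKTi libraries (log2 change 3.46 ± 0.53, adjusted p = 6.62e-06).

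Of 33 mesenchymal transition genes 7 rose and 16 fell (21.2% and 48.5%, median -0.18). Of all tested genes 17% rose and 18.6% fell, and of those over 50 CPM in DMSO 39.2% fell. Beside TNC, SPARC and PRRX1, the lysyl oxidase gene LOXL2 had 290.2, 269.6 and 292 CPM under EZH2i+AKTi and 446, 438 and 425 CPM under AKTi (log2 change -0.62 ± 0.05, adjusted p = 3.57e-09), and AXL, a receptor tyrosine kinase, 381, 367 and 397 CPM with EZH2i+AKTi, against 484, 465 and 473 CPM with AKTi alone (log2 change -0.31 ± 0.05, adjusted p = 1.61e-05). PDGFRA, a growth factor receptor of fibroblasts, went the other way, with 19.5, 17.4 and 20.9 CPM in the EZH2i+AKTi libraries, against 3.81, 4.43 and 4.48 CPM in the AKTi libraries (log2 change 2.18 ± 0.10, adjusted p = 1.74e-12). The summed fibroblast markers overlapped between the groups, as given above, and their part in these changes was not tested. Of 33 collagen genes 11 rose and 8 fell (33.3% and 24.2%), and of 38 matricellular and protease genes 11 rose and 14 fell (28.9% and 36.8%). COL9A3 had 6.14, 6.62 and 5.21 CPM under EZH2i+AKTi and 1.19, 1.22 and 1.47 CPM under AKTi (log2 change 2.22 ± 0.16, adjusted p = 1.19e-09) and COL8A1 329, 299 and 350.3 CPM with EZH2i+AKTi, against 458, 462 and 461 CPM with AKTi alone (log2 change -0.50 ± 0.05, adjusted p = 3.88e-07). The collagenase gene MMP13 rose by 2.75 ± 0.19, the CCN-family gene NOV by 1.23 ± 0.08, and TIMP3, an inhibitor of metalloproteases, by 0.57 ± 0.05. TIMP3 had 2562, 2532 and 2649 CPM under EZH2i+AKTi and 1765, 1728 and 1707 CPM under AKTi, with no overlap.

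Mammary involution is the regression of the milk-producing gland after weaning, in which JAK-STAT3 signalling is known to drive cell death. Of 26 involution and JAK-STAT3 genes 11 rose and 5 fell (42.3% and 19.2%), against 17% and 18.6% of all tested genes, so the share of falls was close to that. The falls numbered 3 without EZH2i+AKTi B or AKTi C and 8 without EZH2i+AKTi C. CEBPD, a STAT3-induced transcription factor of involution in mice, had 66.1, 71.6 and 59.96 CPM in the EZH2i+AKTi libraries, against 34.1, 36.3 and 33.8 CPM in the AKTi libraries (log2 change 0.93 ± 0.08, adjusted p = 1.05e-08). A2M, a protease inhibitor, had 133, 131 and 158 CPM under EZH2i+AKTi and 50.8, 50.7 and 52.4 CPM under AKTi (log2 change 1.45 ± 0.06, adjusted p = 8.53e-13), and CEBPB rose by 0.49 ± 0.05. STAT3 itself had 192, 169 and 197 CPM with EZH2i+AKTi, against 213, 203 and 211 CPM with AKTi alone (log2 change -0.17 ± 0.06, adjusted p = 0.0209); this small fall was not called without EZH2i+AKTi B (adjusted p = 0.248), AKTi A (0.0729) or AKTi C (0.0662), with scaling without mitochondrial and ribosomal protein genes, or with the 6 libraries alone. JAK1 did not pass (-0.12 ± 0.06, adjusted p = 0.161), except without EZH2i+AKTi C, where it was lower (-0.23, adjusted p = 0.000297).

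Of 8 BH3-only genes, which encode triggers of mitochondrial cell death, BIK, HRK and BMF rose and none fell (37.5%). Of all tested genes 17% rose and 18.6% fell. BMF had 101, 92.2 and 101 CPM in the EZH2i+AKTi libraries, against 65, 60.4 and 64.8 CPM in the AKTi libraries (log2 change 0.63 ± 0.05, adjusted p = 1.99e-08), with no overlap. BIK had 1.67, 1.62 and 1.26 CPM under EZH2i+AKTi and 0.706, 0.521 and 0.400 CPM under AKTi (log2 change 1.48 ± 0.29, adjusted p = 0.000374), and HRK 2.22, 1.66 and 1.99 CPM with EZH2i+AKTi, against 0.832, 1.33 and 0.480 CPM with AKTi alone (log2 change 1.14 ± 0.32, adjusted p = 0.00828); HRK was not called without AKTi C (adjusted p = 0.0517). PMAIP1 did not pass (-0.19 ± 0.08, adjusted p = 0.0646), except without EZH2i+AKTi A (adjusted p = 0.0378). In the 7 survival and pore-forming BCL2 family genes BOK rose and MCL1 and BAK1 fell (14.3% and 28.6%). MCL1, a survival protein, had 237, 224 and 255 CPM in the EZH2i+AKTi libraries, against 280.4, 283 and 286 CPM in the AKTi libraries (log2 change -0.25 ± 0.05, adjusted p = 0.000366). The fall of the pore-former BAK1 (-0.18 ± 0.07, adjusted p = 0.0404) was not called without EZH2i+AKTi A or C or any one AKTi library, with another count filter, with the replicate block, with scaling without mitochondrial and ribosomal protein genes, or with the 6 libraries alone. Without EZH2i+AKTi B, 2 members of this list rose. Death receptor genes gave 5 falls and no rise of 15 (33.3%), TNFRSF10B, CASP8, TNFRSF21 and RIPK1 among them. Falls were called for 26.2% of all tested genes at 10 to 50 CPM in DMSO and 39.2% over 50 CPM. TNFRSF10B, a TRAIL receptor, had 35.9, 29.99 and 36.4 CPM under EZH2i+AKTi and 43.6, 42.2 and 43.3 CPM under AKTi (log2 change -0.34 ± 0.07, adjusted p = 0.000379), and the initiator caspase gene CASP8 fell by 0.23 ± 0.06. Without EZH2i+AKTi B, or with the 6 libraries fitted alone, 2 of 15 fell.

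CDK inhibitors and cyclins included large rises, while changes in the replication and mitosis lists were small. CDK inhibitor and cyclin genes gave 5 rises (CCND2, CDKN1C, CDKN1A, CDKN2D and CDKN2C) and 1 fall (CCND1) of 10 (50% and 10%), with CCND2, given above, changing most. CDKN1A, encoding the inhibitor p21, had 35, 36.8 and 32.9 CPM with EZH2i+AKTi, against 17.2, 17.3 and 16.9 CPM with AKTi alone (log2 change 1.03 ± 0.06, adjusted p = 9.37e-11). CDKN1C, an imprinted CDK inhibitor gene and known PRC2 target, had 6.46, 6.72 and 5.32 CPM in the EZH2i+AKTi libraries, against 2.45, 2.35 and 2.62 CPM in the AKTi libraries (log2 change 1.33 ± 0.14, adjusted p = 3.74e-07). CDKN2A, the classical Polycomb target, and CDKN2B, in the same list, had no count in any of the 12 HCC1395 libraries. Why both were absent was not tested. Of 37 G2/M and mitosis genes 21 rose and none fell (56.8%, median 0.18). CDC20, an activator of the anaphase-promoting complex, had 223, 231 and 223 CPM under EZH2i+AKTi and 177, 177 and 175 CPM under AKTi (log2 change 0.36 ± 0.04, adjusted p = 1.23e-06), and the cyclin gene CCNB1 157, 163 and 151 CPM with EZH2i+AKTi, against 119, 124 and 122 CPM with AKTi alone (log2 change 0.37 ± 0.05, adjusted p = 1.08e-05). UBE2C rose by 0.48 ± 0.07, the largest change in that list, and the kinesin gene KIF20A by 0.38 ± 0.05. The proliferation marker MKI67 had 320, 246 and 379 CPM in the EZH2i+AKTi libraries, against 281, 298 and 356 CPM in the AKTi libraries (log2 change 0.01 ± 0.20, adjusted p = 0.969), and its spread between libraries was wider than that of the other mitosis genes named. Of 45 G1/S and replication genes 5 rose (TK1, LIG1, CDT1, E2F2 and RRM2) and 10 fell (11.1% and 22.2%, median -0.06). Of all tested genes 17% rose and 18.6% fell, so the share of falls was close to that. Scaling without mitochondrial and ribosomal protein genes gave 9 rises in this list. The helicase gene MCM6 had 38.5, 37.3 and 40.6 CPM under EZH2i+AKTi and 51.4, 51.4 and 50.1 CPM under AKTi (log2 change -0.40 ± 0.05, adjusted p = 3.28e-06), and the repair gene UNG fell by 0.46 ± 0.05 and DTL by 0.41 ± 0.06. TK1, by contrast, rose by 0.39 ± 0.06.

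In the pathway that the other drug blocks, AKT2 (-0.08 ± 0.05, adjusted p = 0.247) did not pass. AKT1 was lower by a small margin (-0.13 ± 0.05, adjusted p = 0.0278), a call lost without EZH2i+AKTi B (0.15), AKTi A (0.0819) or AKTi B (0.0857), with no count filter, with scaling without mitochondrial and ribosomal protein genes, or with the 6 libraries alone. Of 16 AKT and PI3K genes 2 rose (INPP4B and PHLPP1) and 8 fell (12.5% and 50%). Of all tested genes 17% rose and 18.6% fell, with 39.2% falling over 50 CPM in DMSO. PIK3CD, a catalytic PI3K subunit, had 54.4, 49.3 and 56.9 CPM with EZH2i+AKTi, against 77.7, 74.3 and 78.4 CPM with AKTi alone (log2 change -0.52 ± 0.06, adjusted p = 5.36e-07), and the regulatory subunit gene PIK3R3 35.6, 37 and 39.8 CPM in the EZH2i+AKTi libraries, against 55.1, 52.8 and 52.7 CPM in the AKTi libraries (log2 change -0.52 ± 0.06, adjusted p = 4.1e-07). RPTOR, the mTORC1 scaffold gene, fell by 0.36 ± 0.05. FOXO targets and PI3K feedback genes went both ways, 15 higher and 12 lower of 38 (39.5% and 31.6%). DDIT4, an mTORC1 inhibitor gene, had 198, 188 and 191 CPM under EZH2i+AKTi and 155, 146 and 152 CPM under AKTi (log2 change 0.35 ± 0.05, adjusted p = 5.75e-06) and the glucocorticoid and FOXO target TSC22D3 39.3, 42.7 and 37.5 CPM with EZH2i+AKTi, against 28.1, 31.3 and 28 CPM with AKTi alone (log2 change 0.45 ± 0.06, adjusted p = 9.03e-06), while CITED2 fell by 0.35 ± 0.04. ERK feedback and AP-1 genes gave 16 rises and 7 falls of 29 (55.2% and 24.1%, median 0.24). The immediate early genes FOS and EGR1 rose. FOS had 15.2, 16.5 and 15.1 CPM in the EZH2i+AKTi libraries, against 7.21, 7.32 and 7.87 CPM in the AKTi libraries (log2 change 1.06 ± 0.10, adjusted p = 3.55e-08), and EGR1 21.7, 18.7 and 18.9 CPM under EZH2i+AKTi and 9.84, 10.7 and 8.78 CPM under AKTi (log2 change 1.01 ± 0.10, adjusted p = 1.82e-07). The feedback inhibitor gene SPRY2 rose by 0.55 ± 0.06 and EGR3 by 1.53 ± 0.17. MYC, in the same list, had 132, 133 and 129 CPM with EZH2i+AKTi, against 182, 167 and 175 CPM with AKTi alone (log2 change -0.41 ± 0.05, adjusted p = 2.48e-06) and fell. YAP-TEAD genes gave 6 rises and 5 falls of 20 (30.0% and 25%); rises numbered 3 without AKTi C and falls 3 without EZH2i+AKTi B or AKTi C. YAP1 itself fell by 0.40 ± 0.06 and AMOTL1 rose by 0.72 ± 0.11.

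Most called growth and biosynthesis genes were lower, again by small amounts. Falls were frequent among highly expressed genes in general, 39.2% of genes over 50 CPM in DMSO and 26.2% at 10 to 50 CPM. None of the list shares, above or below, was compared with genes of matched level. Of 30 ribosome biogenesis genes 13 fell (43.3%) and 1, FBL, rose, and the rise was not called without EZH2i+AKTi A or B or AKTi B or C. POLR1A, the large subunit of RNA polymerase I, had 88, 76.5 and 100.1 CPM in the EZH2i+AKTi libraries, against 123, 121 and 129 CPM in the AKTi libraries (log2 change -0.50 ± 0.07, adjusted p = 2.97e-05), and UTP20 fell by 0.57 ± 0.09. Of 27 lysosome genes 13 fell and 4 (NPC2, CTSH, GAA and CTSL) rose (48.1% and 14.8%). The cholesterol carrier gene NPC2 had 258, 293 and 230.4 CPM under EZH2i+AKTi and 182, 183 and 168 CPM under AKTi (log2 change 0.55 ± 0.07, adjusted p = 3.61e-06). LAMP2, a lysosomal membrane protein gene, fell by 0.32 ± 0.04. ER chaperones gave 10 falls and no rise of 19 (52.6%), but 4 to 6 without EZH2i+AKTi A, EZH2i+AKTi B or any one AKTi library, 5 with scaling without mitochondrial and ribosomal protein genes and 3 with the 6 libraries fitted alone. CANX, the largest fall there, had 847, 824 and 932 CPM with EZH2i+AKTi, against 1109, 1132 and 1112 CPM with AKTi alone (log2 change -0.37 ± 0.05, adjusted p = 6.98e-06). Of 22 glycolysis genes 9 fell (40.9%) and 2 (SLC2A3 and HK2) rose (9.09%), 1 without AKTi C and none without AKTi B; HK1 fell by 0.38 ± 0.05. Hypoxia genes gave 3 rises, EGLN3 and LOX among them, and 6 falls of 19 (15.8% and 31.6%), the share of rises being close to the 17% of all tested genes. EGLN3, an oxygen sensor, rose by 1.08 ± 0.10. Fatty acid synthesis genes gave 3 rises (ELOVL7, ACSL1 and SREBF1) and 5 falls of 18 (16.7% and 27.8%). The share of rises was close to the 17% of all tested genes, and 5 rose without EZH2i+AKTi B. ELOVL7 rose by 1.35 ± 0.11. Of 24 cholesterol genes 4 rose (STARD4, EBP, MVD and SC5D; 2 without AKTi C, 7 without EZH2i+AKTi C) and 1, LSS, fell (16.7% and 4.17%), so rises were as frequent as over all tested genes (17%). The fall of LSS was not called without EZH2i+AKTi A or B or AKTi A or C. The sterol carrier gene STARD4 rose by 0.66 ± 0.07. The 23 ATF4 response genes gave 6 rises and 4 falls (26.1% and 17.4%), the share of falls being close to the 18.6% of all tested genes. Serine synthesis, part of that list, split: PHGDH, its first enzyme, had 994, 1070.4 and 956 CPM in the EZH2i+AKTi libraries, against 726, 717 and 676 CPM in the AKTi libraries (log2 change 0.51 ± 0.05, adjusted p = 2.22e-07) and PSPH, its last, 31.9, 37 and 30.5 CPM under EZH2i+AKTi and 43, 48.2 and 46.1 CPM under AKTi (log2 change -0.46 ± 0.07, adjusted p = 1.24e-05). Of 3 tested germline genes 2, PRAME and STAG3, fell, and 1 of them was not called without EZH2i+AKTi A or B or any one AKTi library.

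**Figure D3:**
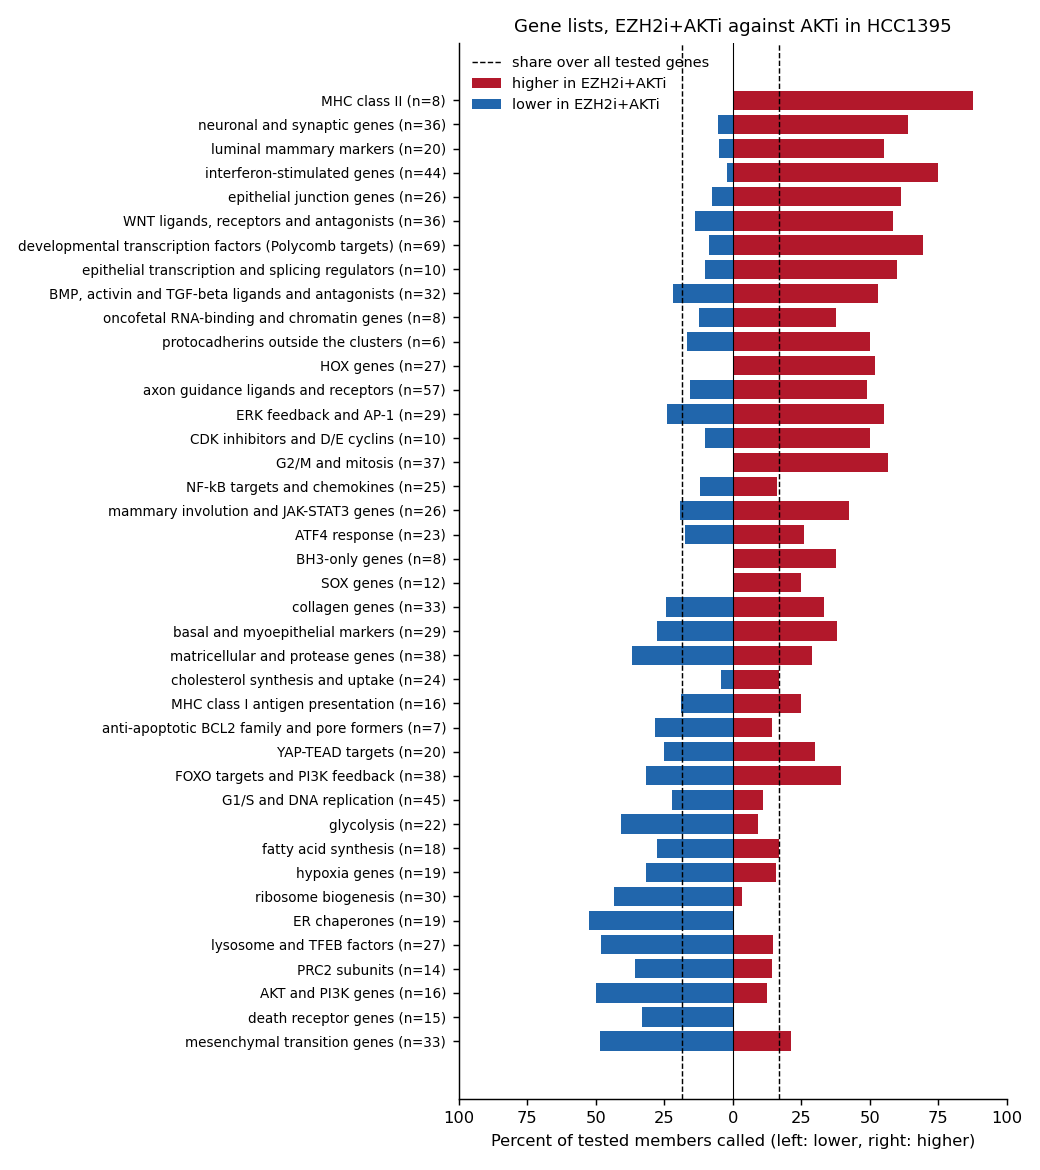
Share of the tested members of each gene list (percent, number tested in parentheses) that were called higher (red, right) or lower (blue, left) in EZH2i+AKTi against AKTi; lists with at least 6 tested members, ordered by median log2 change, and dashed lines mark 17% and 18.6%, the shares over all tested genes. Developmental, neuronal, interferon and junction lists lie far to the right of the line, and mesenchymal, chaperone, lysosome and ribosome biogenesis lists to the left. The lines take no account of level. Falls were more frequent among highly expressed genes in general (39.2% over 50 CPM in DMSO) and rare under 0.5 CPM (1.19%).

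The same drug was compared without AKT inhibition, EZH2i against DMSO, in 6 libraries that the main comparison does not use. There 6087 genes were called (33.7%). Of these 3402 genes rose (18.8%), 1337 of them by 2-fold or more (7.4%), and 2685 fell (14.9%), 67 of them by 2-fold or more (0.371%); scaling without mitochondrial and ribosomal protein genes turned this split, to 3030 and 3616, as did RLE (3095 and 3511), DESeq2 (3018 and 3489) and leaving out EZH2i A (2730 and 2882). Genes called higher in both settings numbered 2333, which is 76.1% of those higher with AKTi and 68.6% of those higher without. For lower genes 1897 were shared, 56.5% of those with AKTi and 70.7% of those without. Opposite calls were made for 31 genes, 14 higher with AKTi and lower without and 17 the reverse. Of the 1173 genes that rose 2-fold or more with AKTi, 1001 were also called higher without it, 172 were not called and none was lower. Of the 66 that fell 2-fold, 25 were called lower without AKTi and 41 were not called. Over the 18074 genes the changes with and without AKTi correlated with Pearson's r = 0.811 and Spearman's rho = 0.676, a description across genes, which are not independent. Among the strongest rises, IGF2BP1 rose by 5.80 ± 0.39 with AKTi and 4.62 ± 0.24 without (difference 1.18 ± 0.46, adjusted p = 0.203), CCND2 by 4.96 ± 0.18 and 4.67 ± 0.16 (0.29 ± 0.24, adjusted p = 0.679) and FST by 3.44 ± 0.12 and 3.72 ± 0.18 (-0.28 ± 0.22, adjusted p = 0.636). These differences did not pass the test, which does not show that they are equal.

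**Figure D4:**
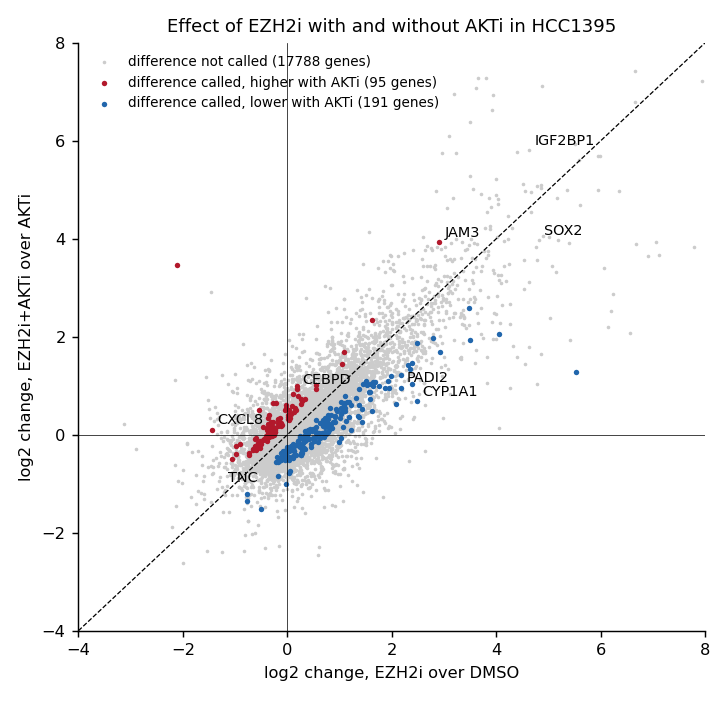
Log2 change of each tested gene for EZH2i over DMSO (horizontal) against EZH2i+AKTi over AKTi (vertical) in HCC1395; the dashed line marks equal changes, coloured points are the 286 genes whose difference was called, and 2 genes lie outside the axes. Most genes scatter around the line. CXCL8 and CEBPD lie above it and CYP1A1 and PADI2 below, with their differences called. IGF2BP1 lies above it and SOX2 below, without a called difference.

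The difference between the EZH2i effects with and without AKTi was tested directly, as an interaction. It was called for 286 genes (1.58%), 95 with a positive difference (0.526%) and 191 with a negative one (1.06%). The sign gives direction and not strength, since a weaker fall with AKTi is also positive and a deeper fall negative. The difference was 2-fold or more for 4 of the 95 (0.0221% of tested genes) and 16 of the 191 (0.0885%), while 2394 genes had an unadjusted p under 0.05. The 2-fold counts were 11 and 16 without EZH2i+AKTi B, 9 and 34 without EZH2i+AKTi C, and 2 to 5 and 11 to 17 without any one of the other libraries. They were 14 and 21 with no count filter, 8 and 12 with TMM without mitochondrial and ribosomal protein genes, and 6 and 12 with DESeq2. The direction with more genes differed between settings: RLE gave 146 and 125, TMM without mitochondrial and ribosomal protein genes 232 and 105, DESeq2 280 and 197, and no count filter 219 and 203. Leaving out EZH2i+AKTi B gave 485 and 145, EZH2i+AKTi C 366 and 656, and EZH2i A 166 and 64. Of the 95, 11 were called higher in both settings, and 24 were higher with AKTi and not called without it. Another 15 were lower in both, 31 were lower without AKTi and not called with it, and 14 had opposite calls. Of the 191, 74 were called higher in both settings but rose less with AKTi on the log2 scale, and 7 were lower in both. Another 56 were called higher without AKTi and not called with it, and 38 were called lower with AKTi and not called without it. The genes described next kept their interaction call under every setting and left-out library run.

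Among them BMF rose less on the log2 scale when AKT was already inhibited, from a higher starting level. In CPM the BMF means went from 63.4 to 98.1 with AKTi and from 11.1 to 46.9 without, a similar gain. Its levels were 101, 92.2 and 101 CPM under EZH2i+AKTi, 65, 60.4 and 64.8 CPM under AKTi, 47.9, 46.2 and 46.7 CPM under EZH2i and 11.6, 11 and 10.7 CPM in DMSO. The EZH2i effect was 0.63 ± 0.05 with AKTi and 2.08 ± 0.06 without (difference -1.45 ± 0.08, adjusted p = 2.26e-09). The combined level was still the highest of the 4 groups. The same held for ALDH1A3, a retinoic acid synthesis enzyme gene, with 257, 231 and 257 CPM under EZH2i+AKTi, 158, 145 and 166 CPM under AKTi, 95.1, 95.9 and 98.3 CPM under EZH2i and 41.7, 44.1 and 41.2 CPM in DMSO (difference -0.52 ± 0.08, adjusted p = 0.00118). For ALDH1A3 the gain in mean CPM was larger with AKTi, 156 to 248, than without, 42.3 to 96.5, although the log2 change was smaller. CYP1A1 and PADI2 also had a smaller log2 effect with AKTi. CYP1A1, the xenobiotic-metabolising target of the aryl hydrocarbon receptor, had 5.51, 6.32 and 7.22 CPM under EZH2i+AKTi, 3.53, 4.22 and 4.03 CPM under AKTi, 15, 13.8 and 14.4 CPM under EZH2i and 2.98, 2.39 and 2.33 CPM in DMSO (difference -1.80 ± 0.17, adjusted p = 4.03e-06). PADI2, an arginine-citrullinating enzyme gene, had 28.1, 25.3 and 29.5 CPM under EZH2i+AKTi, 14, 15.3 and 13.2 CPM under AKTi, 44.3, 43.2 and 43.8 CPM under EZH2i and 10.1, 9.57 and 9.27 CPM in DMSO (difference -1.22 ± 0.10, adjusted p = 9.46e-07). For CYP1A1 and PADI2, unlike BMF and ALDH1A3, EZH2i alone gave the highest level of the 4 groups. PELI2, a ubiquitin ligase gene, differed by -1.56 ± 0.33 (adjusted p = 0.0134), and GDF5 fell further with AKTi (difference -0.58 ± 0.09, adjusted p = 0.00143).

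Other genes moved up, or fell less, once AKT was inhibited. CXCL8, the neutrophil chemokine gene, had 19.96, 22.7 and 17.6 CPM under EZH2i+AKTi, 17.4, 20.2 and 18.8 CPM under AKTi, 15, 15.7 and 15.2 CPM under EZH2i and 40.9, 42.5 and 42 CPM in DMSO. EZH2i lowered it without AKTi (-1.45 ± 0.08), while its change with AKTi did not pass (0.10 ± 0.08, adjusted p = 0.345; difference 1.55 ± 0.11, adjusted p = 9.64e-08), except without EZH2i+AKTi C, where it was called higher (0.18). The EZH2i+AKTi and AKTi libraries overlapped, and all DMSO libraries were above them. CEBPD had 66.1, 71.6 and 59.96 CPM under EZH2i+AKTi, 34.1, 36.3 and 33.8 CPM under AKTi, 17.3, 16.3 and 17.3 CPM under EZH2i and 13.7, 13.9 and 17.2 CPM in DMSO (difference 0.74 ± 0.11, adjusted p = 0.00127). It was highest in the combination and did not pass for EZH2i over DMSO (adjusted p = 0.106). NNMT, nicotinamide N-methyltransferase, had 51.1, 62.8 and 46.7 CPM under EZH2i+AKTi, 33.4, 36.4 and 33.2 CPM under AKTi, 22.7, 19.9 and 19.4 CPM under EZH2i and 25.7, 23.9 and 25.3 CPM in DMSO (difference 0.92 ± 0.13, adjusted p = 0.000824). NT5E, the ecto-nucleotidase CD73, had an effect of 0.50 ± 0.13 with AKTi and -0.55 ± 0.16 without (difference 1.05 ± 0.21, adjusted p = 0.0109), so NNMT and NT5E rose in one setting and fell in the other. CDC20 rose by 0.36 ± 0.04 with AKTi and was at 0.01 ± 0.04 without (difference 0.34 ± 0.06, adjusted p = 0.00309).

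**Figure D5:**
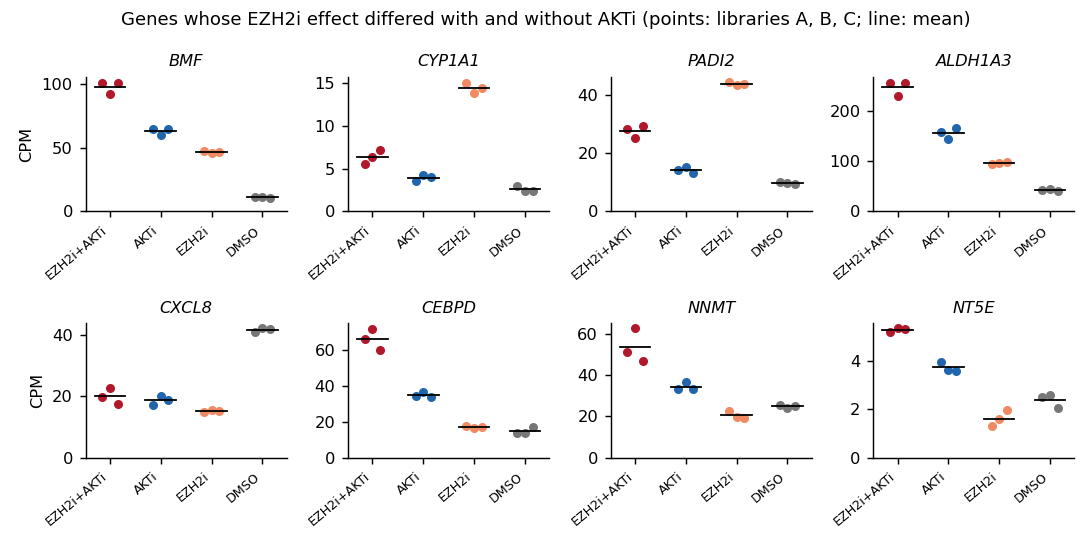
Level (CPM, linear axis from 0) of 8 genes whose EZH2i effect differed with and without AKTi, in each HCC1395 library in the order EZH2i+AKTi, AKTi, EZH2i and DMSO; points are libraries A, B and C and the line is their mean. In the upper row the step from DMSO to EZH2i is steeper on the log2 scale than that from AKTi to EZH2i+AKTi, and in the lower row CEBPD, NNMT and NT5E step up mainly in the presence of AKTi.

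By gene list, several counts differed with and without AKTi. Over all tested genes 17% rose and 18.6% fell with AKTi, and 18.8% and 14.9% without it. The interaction was called for 1.58%. With AKTi the NF-kB list (16% and 12%) and the rises of the cholesterol list (16.7%) were close to or below these shares. The counts without AKTi may depend on scaling. Leaving mitochondrial and ribosomal protein genes out of TMM raised the falls over all genes from 2685 to 3616. NF-kB targets gave 4 rises and 3 falls with AKTi and no rise and 12 falls without, with 7 of 25 members called in the interaction, each with the higher change with AKTi (CXCL8, TRAF1, BIRC3, RELB, CSF1, NFKB2 and SOD2). ATF4 response genes gave 6 rises and 4 falls with AKTi and 3 and 9 without, with 7 of 23 in the interaction, each higher with AKTi, among them PHGDH and CHAC1. G2/M genes gave 21 rises and no fall with AKTi and 5 and 1 without, with 4 of 37 (CDC20, AURKA, CDCA8 and PLK1) in the interaction. ERK feedback and AP-1 genes gave 16 and 7 with AKTi and 9 and 8 without, with 5 of 29 (FOSL1, ETV4, SPRY2, JUN and IER3), and YAP-TEAD genes 6 and 5 with AKTi and 2 and 11 without, with 4 of 20 (NT5E, FJX1, CYR61 and AXL), again higher with AKTi. FOXO and PI3K feedback genes gave 15 and 12 with AKTi and 17 and 9 without, with 6 of 38 lower with AKTi, PIK3R3 among them, and 1, SOD2, higher. These interaction counts depended on single libraries. They ran from 3 (without AKTi A or EZH2i B) to 10 (without EZH2i+AKTi B or C) for NF-kB targets, from 4 to 11 for ATF4 genes, 1 to 13 for G2/M genes, 3 to 8 for ERK genes and 2 to 11 for YAP-TEAD genes, with the highest count without EZH2i+AKTi B in each of these last 4 and low counts without EZH2i+AKTi A, EZH2i B or EZH2i C. For the lower FOXO members they ran from 2 (without EZH2i A) to 9 (without EZH2i+AKTi C). SOX genes gave 3 rises with AKTi and 8 without of 12, and cholesterol genes 4 rises and 1 fall with AKTi and 2 and 9 without of 24, with no member of either list called in the interaction. The developmental list gave 48 rises in each setting and 1 member in each direction of the interaction, and the interferon list 33 rises with AKTi and 25 without, with 2 members (OAS3 and ISG15) in the interaction, none without EZH2i B or DMSO A and 6 without EZH2i+AKTi B.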

How the data were processed

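Tables of read counts per gene, deposited by the authors, were read for the 12 HCC1395 libraries; reads were processed with fastp and HISAT2 2.0.5 on hg38, and DESeq2 is listed, per the submitters' processing notes. The counting tool, its annotation and its use of strand were "not given in the sources used here". The 24 columns of deposited normalised tables and the 12 libraries of the HCC38 and HCC1937 lines, which lack an AKTi-only group, were not used. Of 57167 distinct symbols 57142 were matched to GENCODE 29 for gene type and position; 1745 entries share a symbol with another entry, SOD2 alone among the genes described, so its reads may be split.

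Counts were filtered (edgeR 4.0.16 filterByExpr, minimum count 10), scaled by TMM and fitted with edgeR's quasi-likelihood model (R 4.3.3) over all 12 libraries with 4 groups, no block and 8 residual degrees of freedom. Contrasts were EZH2i+AKTi minus AKTi, EZH2i minus DMSO and their difference. P-values were adjusted by Benjamini-Hochberg over 18074 genes and called at 0.05. The steps were tested on simulated data. Library totals ran from 33469927 to 51815656 counts, with 3 libraries per group; errors cover the spread between these libraries. Libraries with the same letter did not deviate together (correlations -0.06 to 0.07), so letters were not used as pairs.

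Named genes are the 16 largest rises and 12 largest falls among called protein-coding genes averaging 2 CPM or more with no overlap between groups, the 6 largest interaction values in each direction, the 4 members with the smallest p in each of 41 lists, and a panel of 25; the text uses most of them, and a few are not reported here. Members of small counts outside this rule were named after their values were seen. The comparison, the genes and the lists were chosen with earlier results of these data known. Of 151 genes described, 39 lie over a neighbour that was also tested (23 over a protein-coding one) and may share its reads. Alternatives were RLE scaling, no or a stricter count filter (1 CPM in 3 libraries), DESeq2 1.42.0, a replicate block, TMM without mitochondrial and ribosomal protein genes, the 6 libraries alone, and each library left out.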

Additional observations from a re-analysis of the deposited data

Results flagged for a closer look

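The difference between the EZH2i effect with AKTi (EZH2i+AKTi over AKTi) and without it (EZH2i over DMSO) passed the interaction test of edgeR, at a Benjamini-Hochberg adjusted p under 0.05 over 18074 genes, for 24 of the named genes. A positive log2 difference means a higher change with AKTi. No explanation was tested.

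Differences above 0 were those of CXCL8 (1.55), NT5E (1.05), JAM3 (1.02), NNMT (0.92), FAM222A (0.82), TRAF1 (0.75), CEBPD (0.74), CHAC1 (0.62), ISG15 (0.47), SPRY2 (0.40), CDC20 (0.34), PHGDH (0.34), AXL (0.28) and SOD2 (0.25). Differences below 0 were those of CYP1A1 (-1.80), PELI2 (-1.56), BMF (-1.45), HAP1 (-1.34), PADI2 (-1.22), GRIK2 (-0.80), GDF5 (-0.58), ALDH1A3 (-0.52), SCG5 (-0.44) and PIK3R3 (-0.39).

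Calls were lost in the fit without at least 1 library for AXL, CHAC1, FAM222A, GRIK2, HAP1, ISG15, JAM3, PHGDH, PIK3R3, SCG5, SOD2, SPRY2 and TRAF1. JAM3 lost it without AKTi B alone (0.91, adjusted p = 0.057). The other 11 genes kept the call in every setting run. The named gene with the largest positive difference, CXCL8, was lower without AKTi (-1.45 ± 0.08) and did not pass with it (0.10 ± 0.08), except without EZH2i+AKTi C, where it was called higher (0.18).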

How the results depend on the processing

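Main counts were 3067 genes higher and 3358 lower for EZH2i+AKTi over AKTi, and 95 and 191 for the interaction. With the 6 libraries fitted alone 2169 genes were lower (2724 higher). The stricter count filter left 703 genes 2-fold higher and 22 2-fold lower, since fewer low genes were tested. The interaction gave 146 higher and 125 lower with RLE scaling, 219 higher with no count filter, 280 higher with DESeq2 (197 lower) and 232 higher and 105 lower with TMM without mitochondrial and ribosomal protein genes; the cause was not tested. Leaving out single libraries, the main comparison gave 2568 to 3526 higher and 2586 to 3730 lower, the interaction 38 to 485 higher and 64 to 656 lower, and genes called in opposite directions with and without AKTi numbered 17 to 72, against 31. With the letters as a replicate block, which the correlations do not support as pairs, the counts were 3036 and 3318, and 84 and 163 for the interaction. Counts of called list members, in the main comparison and the interaction, stayed within 1.5 times in 2154 recomputations and moved further in 388. Of the recomputed changes of named genes 1931 kept direction and call, 25 lost the call, 3 gained it and 4 turned sign. Those that turned sign never passed the test: over the left-out libraries GATA3 ran from -0.045 (without AKTi B) to 0.25, and MKI67 from -0.14 (without EZH2i+AKTi C) to 0.19, with -0.06 without AKTi A and -0.02 without AKTi B. Depth limits genes near 0 under AKTi: 18 tested genes had no count there.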
